A study of Homo sapiens with 4 samples.

Results

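Knockdown of hnRNPK was compared directly with another siRNA condition of the same experiment, the one labelled si-lncRNA-LBCS, so that both sides of the comparison had received a mixture of targeting siRNAs. The comparison takes 2 of the 4 RNA-seq libraries of the series and 13597 of the 27629 genes listed in any of them. A gene was used when it was listed for both libraries and reached 1 CPM (counts per 1e6 reads) in either, after median-of-ratios scaling. All 4 libraries came from the established human bladder cancer line UM-UC-3, harvested 48 h after transfection with siRNA at 75 nM. The compared cultures received a mixture of 2 siRNAs against hnRNPK or a mixture of 2 against lncRNA-LBCS. A library with control siRNA and a library with siRNAs against PTBP1, another RNA-binding protein, are shown beside them. There was 1 library per condition. The spread between cultures is therefore unknown for every difference, and no p-value is given.

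HNRNPK encodes a protein with KH domains that binds C-rich RNA and DNA and takes part in transcription, splicing, mRNA stability and translation. lncRNA-LBCS is a long noncoding RNA known in bladder cancer as a partner of hnRNPK and of the histone methyltransferase EZH2. Many of the genes described here belong to the type I interferon response. In that response, sensors of double-stranded RNA such as RIG-I and MDA5 lead to production of interferon, whose receptor signals through JAK kinases to transcription factors of the STAT and IRF families. These factors then switch on a large set of antiviral effector genes.

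The 4 siRNAs are shown because they are what differed between the cultures. Each is given as its sense strand, 5′ to 3′. The capitals mark bases 12 to 18, which equal the site that guide bases 2 to 8 (the seed) would pair with in an mRNA. The last 2 bases are the overhang.
si-hnRNPK siRNA-1: ggguuguagagUGCAUAAatt
si-hnRNPK siRNA-2: gccuccaucuaGAAGAGAutt
si-lncRNA-LBCS siRNA-1: gcugcucauuuGUCUGAUctt
si-lncRNA-LBCS siRNA-2: ggugguagucaACACAAAutt
The 19 paired bases were matched to the transcripts of GENCODE release 29 on GRCh38. Those of hnRNPK siRNA-1 lay at chr9:83972869-83972887, in exon 10 of 17 of a coding HNRNPK transcript, and those of siRNA-2 at chr9:83971998-83972016, in exon 11. Both sites are in coding sequence on the minus strand. The lncRNA-LBCS siRNAs matched chr6:19803794-19803812 and chr6:19803293-19803311, also on the minus strand, in exons of the gene ENSG00000228412.

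HNRNPK itself (ENSG00000165119, chr9:83968083-83980616) separated the libraries as their labels say. It was at 811 CPM in the si-lncRNA-LBCS-labelled library, 781 CPM in the control, 600 CPM in si-PTBP1 and 202 CPM in si-hnRNPK, all after scaling. The si-hnRNPK library thus held 24.97% of the level of the si-lncRNA-LBCS-labelled library (95% exact Clopper-Pearson interval 24.5 to 25.5%), a difference of -1.996 on the log2(CPM + 1) scale. Every interval given here covers counting error only, because there was 1 library per condition. Reads without molecular identifiers are not independent molecules, so the intervals can be too narrow even for that error. Both siRNAs also match the processed pseudogenes HNRNPKP1, HNRNPKP2 and HNRNPKP4 in full. How reads shared by these copies and HNRNPK were assigned is not given in the sources used here.

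The gene matched by the other siRNA pair, LNC-LBCS (ENSG00000228412, chr6:19324988-19839080), did not clearly separate its library from the control. It was at 1.47 CPM (103 reads) in the si-lncRNA-LBCS-labelled library and 1.79 CPM (110 reads) in the control. The first is 82.3% of the second, with an interval of 62.3 to 109% that includes equality. It was at 3.69 CPM (186 reads) in si-hnRNPK and 3.49 CPM (214 reads) in si-PTBP1, so the library labelled for it held 39.86% of the si-hnRNPK level (31.0 to 51.0%), a difference of 0.92 between both. LNC-LBCS overlaps ID4 on the opposite strand, and whether reads were assigned by strand is not given in the sources used here. The sample labels also give an RT-qPCR inhibition rate of the target, set to 1 in the control, of 0.13 for this culture and 0.08 for si-hnRNPK. Whether that rate is the level that remained is not stated, and it was not tested here. In the reads, HNRNPK in si-hnRNPK was at 25.9% of the control (25.4 to 26.5%), beside the 82.3% of LNC-LBCS in its labelled library. For these reasons the wording "si-lncRNA-LBCS-labelled library" is used throughout. PTBP1 was at 328 CPM in that library and 273 CPM in si-hnRNPK, against 82.0 CPM in si-PTBP1.

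More genes were higher than lower in si-hnRNPK as compared with the si-lncRNA-LBCS-labelled library, and the high side held the larger differences. A difference here is the log2(CPM + 1) of si-hnRNPK minus that of the si-lncRNA-LBCS-labelled library, and the threshold is 1. On this scale 499 genes (3.67%) were higher and 239 (1.76%) were lower, together 5.43% of 13597. With CPM as deposited, without rescaling, the split was 418 higher and 339 lower. The scaling shifts a difference by about 0.10, and by less in genes at low CPM. The median difference was 0.012, and 75.5% of genes differed by less than 0.5. Of the higher genes, 91 differed by 2 or more, against 1 of the lower genes. At the threshold the smallest counted rise was 1.0 and the largest uncounted one 0.999, and on the other side the values were -1.002 and -0.9987. At the level filter, 215 genes had their higher level between 1 and 1.1 CPM and 241 genes between 0.9 and 1 CPM.

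**Figure D1:**
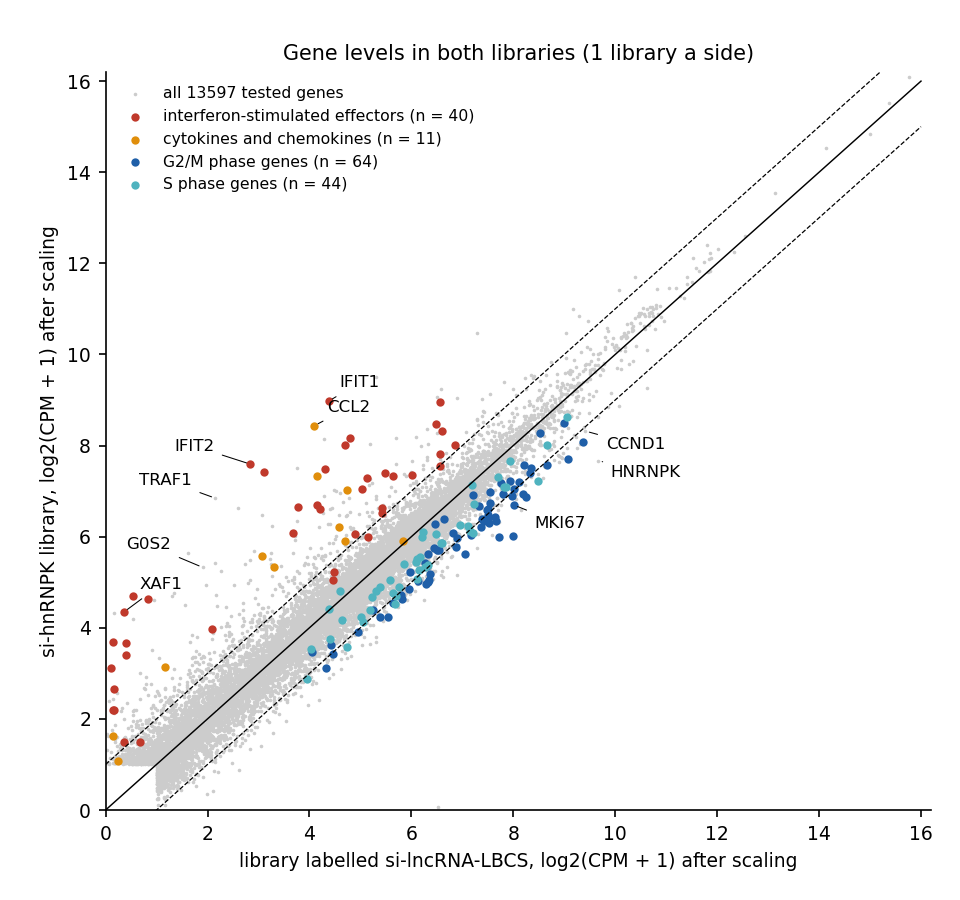
Level of each of 13597 genes in the si-lncRNA-LBCS-labelled library (x axis) and in si-hnRNPK (y axis), both as log2(CPM + 1) after scaling, with 1 library a side. Solid line, equality; dashed lines, differences of 1 and -1. The interferon-stimulated effectors (red) lie above equality, 35 of 40 past the threshold, and the G2/M phase genes (dark blue) lie below it, 34 of 64 past the threshold.

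The same rule gives a scale for these counts. Against the control library, si-hnRNPK had 610 genes higher (4.43%) and 374 lower (2.72%), 7.15% in all, and the si-lncRNA-LBCS-labelled library had 54 higher (0.4%) and 133 lower (0.985%), 1.38% in all. Against si-PTBP1, si-hnRNPK had 530 higher (3.83%) and 369 lower (2.67%), 6.5% in all. These comparisons share libraries and are not independent of each other. For 337 of the 499 higher genes the control level lay within 0.5 of the si-lncRNA-LBCS-labelled library and not of si-hnRNPK, and for 52 it was the other way round. For 80 of the 499 the control lay between both libraries and away from each. Of the 239 lower genes, the control was close to the si-lncRNA-LBCS-labelled library alone for 197 and to si-hnRNPK alone for 21. For most of the genes past the threshold, then, si-hnRNPK was the library that stood away from the control.

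The 12 largest differences on the higher side, among genes with a symbol whose higher level was at least 10 CPM, were those of IFIT2, TRAF1, IFIT1, CCL2, IFIT3, RIGI, TRIM22, OAS2, OASL, OAS1, XAF1 and ISG15. IFIT1 (chr10:89392546-89406486) encodes a protein that binds viral RNA lacking the methylation of host caps. It was at 19.8 CPM in the si-lncRNA-LBCS-labelled library, 19.5 CPM in the control, 11.1 CPM in si-PTBP1 and 503 CPM in si-hnRNPK. The ratio of si-hnRNPK to the si-lncRNA-LBCS-labelled library was 25.4 (24.0 to 26.8), and the other 3 libraries were all far below si-hnRNPK. IFIT2, of the same family, had the largest difference on this side, 4.75 (4.63 to 4.87). It was at 6.17 CPM in the si-lncRNA-LBCS-labelled library, 6.13 CPM in si-PTBP1, 23.9 CPM in the control and 192 CPM in si-hnRNPK, so here the control lay above the other low libraries. TRAF1, an adaptor of tumour necrosis factor receptors, showed the same order more clearly, at 3.46, 4.91, 34.1 and 114 CPM in these libraries. Its difference of 4.69 was the sum of a level below the control on one side and above it on the other.

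**Figure D2:**
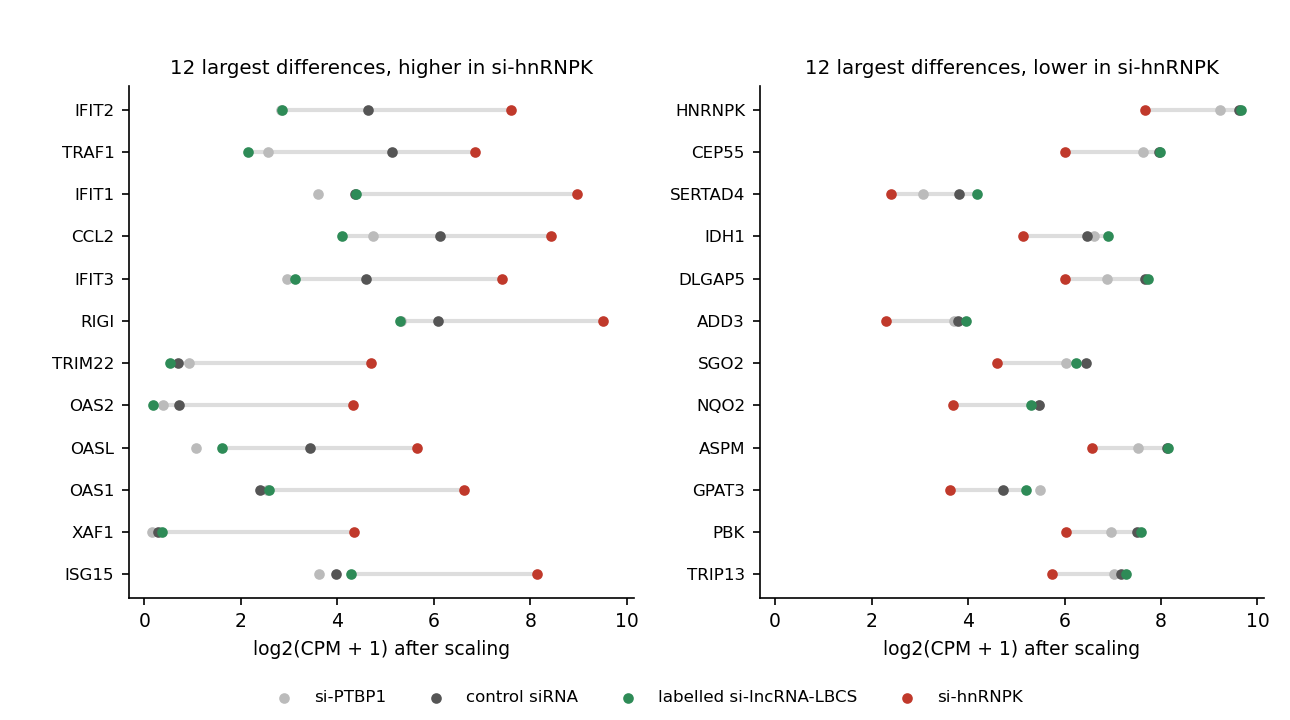
Levels in all 4 libraries, as log2(CPM + 1) after scaling, of the 12 genes with the largest difference in each direction, among genes with a symbol at 10 CPM or above in the higher library. Red points, si-hnRNPK; green, the si-lncRNA-LBCS-labelled library; dark grey, control; light grey, si-PTBP1; the bars join the compared libraries. XAF1 goes from 0.286 to 19.4 CPM and HNRNPK from 811 to 202 CPM.

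Interferon ligands had few reads. IFNB1, the gene of interferon beta, had 29 reads in si-hnRNPK (0.576 CPM), 1 read in the control and 1 in si-PTBP1, and was not listed for the si-lncRNA-LBCS-labelled library. IFNL1, a type III interferon, had 3 and 2 reads in si-hnRNPK and the si-lncRNA-LBCS-labelled library. IFNL2 had 6 reads in si-hnRNPK, 0 in the control and was not listed for the si-lncRNA-LBCS-labelled library. None of the 3 genes reached the 1 CPM needed for the comparison.

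Of the receptors, IFNAR2 was at 3.04 CPM in the si-lncRNA-LBCS-labelled library and 7.21 CPM in si-hnRNPK, a difference of 1.02, whereas IFNAR1, the other chain of the type I receptor, differed by -0.10. The receptor genes of interferon gamma, IFNGR1 and IFNGR2, differed by 0.48 and 0.45. Kinases downstream of the receptors also stayed under the threshold, with 0.60 for JAK1, 0.27 for TYK2 and -0.088 for JAK2.

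The transcription factors that act below the receptors differed more. IRF7, which drives interferon genes, was at 7.40 CPM in the si-lncRNA-LBCS-labelled library, 5.28 CPM in the control, 7.59 CPM in si-PTBP1 and 88.5 CPM in si-hnRNPK, a difference of 3.41. The 3 other libraries were close to each other and si-hnRNPK alone was high. IRF1 differed by 2.24, STAT2 by 1.96 and IRF9 by 1.28. IRF3, the factor activated by the sensors through phosphorylation, differed by 0.48. Over the whole list of interferons, receptors, JAK-STAT and IRF genes, 7 of 18 tested members were higher and 0 lower, with a median of 0.56. Among all genes 3.67% were higher.

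Sensors of double-stranded RNA were higher, while most of the genes that act after them stayed under the threshold. RIGI, which encodes RIG-I, was at 38.3 CPM in the si-lncRNA-LBCS-labelled library, 66.9 CPM in the control, 38.8 CPM in si-PTBP1 and 730.3 CPM in si-hnRNPK. IFIH1, which encodes MDA5, was at 3.44, 4.34, 2.25 and 41.96 CPM in the same order. These sensors differed by 4.22 and 3.27, and TLR3, the endosomal sensor, by 2.32. The adaptor MAVS and the kinase TBK1, which act after the sensors, differed by 0.16 and -0.018. The DNA sensor CGAS differed by 0.19. Its adaptor STING1 was past the threshold at 1.17, but it was at 2.23 CPM in the si-lncRNA-LBCS-labelled library, 7.39 CPM in the control and 6.27 CPM in si-hnRNPK, so the control was close to si-hnRNPK. In all, 5 of 11 tested members were higher, against 3.67% of all genes, and 0 lower, with a median of 0.98.

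Effector genes were higher almost throughout. Of 40 interferon-stimulated antiviral effectors, all of them tested, 35 were higher and 0 lower, against 3.67% higher among all genes, and the median was 2.12. Their summed level was 1159 CPM in the si-lncRNA-LBCS-labelled library, 1222 CPM in the control, 1122 CPM in si-PTBP1 and 5090 CPM in si-hnRNPK. The 5 members under the threshold were ZC3HAV1 at 0.999, SAMHD1 at 0.85, MX1 at 0.82, PML at 0.74 and TRIM14 at 0.58. MX1 was low in every library, at 0.60 CPM in the si-lncRNA-LBCS-labelled library and 1.83 CPM in si-hnRNPK, although it is one of the best known interferon-stimulated genes. Its paralog MX2 had 5 and 387 reads, a difference of 3.02. RSAD2, the gene of the antiviral enzyme viperin, had 7 and 594 reads, a difference of 3.54 and a ratio of 118 (56.9 to 295). TRIM22 had 31 and 1263 reads and a difference of 4.18.

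The enzymes OAS1, OAS2 and OAS3 sense double-stranded RNA and make short adenylate chains in response, and OASL is a relative without this activity. OAS1, OAS2, OASL and OAS3 were higher by 4.03, 4.16, 4.04 and 1.58. ISG15 encodes a ubiquitin-like protein that is attached to other proteins. It was at 18.4 CPM in the si-lncRNA-LBCS-labelled library, 14.6 CPM in the control, 11.3 CPM in si-PTBP1 and 282 CPM in si-hnRNPK. Of the 6 tested genes of ISG15 conjugation 5 were higher, against 3.67% of all genes. Among them were USP18 by 2.96, which removes ISG15 from proteins, and HERC6 by 2.18. HERC5, the main human ligase for ISG15, differed by 0.85.

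MHC class I presentation genes were higher by smaller amounts, with a median of 1.13. Past the threshold 10 of 17 were higher, against 3.67% of all genes, and 0 lower. HLA-B was at 35.7 CPM in the si-lncRNA-LBCS-labelled library and 262 CPM in si-hnRNPK, and TAP1, a subunit of the peptide transporter, at 23.3 and 123 CPM. B2M, the light chain of every class I molecule, differed by 1.13. TAP2, the partner of TAP1, differed by 0.11 and ERAP1, a trimming peptidase, by 0.28. HLA genes share long stretches of sequence, so the split of reads between them is uncertain.

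Promoters of 3 higher genes are shown because a binding motif of the factors above can be read in them. Each is the 160 bases before the RefSeq start of the gene on GRCh38.p14, 5′ to 3′ on the strand of the gene. In IFIT1 (chr10:89392463-89392622, plus strand) and ISG15 (chr1:1013337-1013496, plus strand) the capitals mark matches to the core of the interferon-stimulated response element, on either strand. IFIT1 holds 2 matches, and ISG15 holds 2 that overlap. In NFKBIA (chr14:35404750-35404909, minus strand), the gene of an NF-kappaB inhibitor described further on, they mark 1 match to one form of the NF-kappaB site.
IFIT1: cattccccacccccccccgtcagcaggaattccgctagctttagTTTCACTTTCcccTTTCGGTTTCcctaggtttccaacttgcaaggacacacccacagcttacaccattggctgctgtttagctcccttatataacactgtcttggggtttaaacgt
ISG15: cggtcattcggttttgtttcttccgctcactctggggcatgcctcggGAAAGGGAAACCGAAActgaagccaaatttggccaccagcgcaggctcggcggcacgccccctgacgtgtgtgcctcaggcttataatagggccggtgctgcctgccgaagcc
NFKBIA: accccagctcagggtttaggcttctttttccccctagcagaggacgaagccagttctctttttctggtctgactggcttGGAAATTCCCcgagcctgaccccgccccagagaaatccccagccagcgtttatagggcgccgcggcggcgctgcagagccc
The response element was found within 250 bases before the start in 3.07% of all 27305 promoters and in 2.36% of those of tested genes. It was found in 42 of 337 promoters of higher genes (12.5%), 3 of 174 of lower genes (1.72%) and 18 of 34 of the effector list (52.9%). Of 7 promoters of the largest higher genes named above, 3 held it, those of IFIT1 and ISG15 among them. The NF-kappaB form was found in 1.94% of promoters of tested genes, 7.12% of those of higher genes and 1.72% of those of lower genes. NFKBIA belongs to the higher genes with control and si-PTBP1 between the compared libraries, described further on. Of 5 promoters of the largest of these genes, that of NFKBIA alone held the form. The effector list was made of known interferon-stimulated genes, and 35 of its 40 members are also among the higher genes. Its share is therefore not independent of that of the higher genes, and it describes the list rather than these libraries. The motifs were chosen after the values were known, and a match is a description of letters, not a measured binding site.

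Cytokine and chemokine genes were also higher, with 9 of 11 tested members past the threshold, against 3.67% of all genes, 0 lower and a median of 1.97. The other 10 of the 21 members were not tested, and without the filter on low values the median was 1.49. CCL2, which attracts monocytes, was at 16.1 CPM in the si-lncRNA-LBCS-labelled library, 25.8 CPM in si-PTBP1, 68.7 CPM in the control and 345 CPM in si-hnRNPK. CXCL8, which attracts neutrophils, was at 16.7, 20.4, 37.1 and 159 CPM in the same order. In both genes the control lay well above the si-lncRNA-LBCS-labelled library and below si-hnRNPK. CXCL3 differed by 2.50 and CSF1, the macrophage growth factor, by 2.28. CXCL10 and CXCL11, chemokines that interferons induce, had 27 and 15 reads in si-hnRNPK and 0 in the control, and were not listed for the si-lncRNA-LBCS-labelled library. Relative to the control, the median of the cytokine list was 1.36 in si-hnRNPK and -0.71 in the si-lncRNA-LBCS-labelled library, while that of the interferon effectors was 2.16 and 0.00078.

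A direct comparison adds up such movements to opposite sides of the control. In 24 genes with a symbol at 10 CPM or more, higher in si-hnRNPK, the control and si-PTBP1 both lay between the compared libraries and at least 0.5 from each. The 8 largest were CCL2, HMOX1, CLDN1, MMP1, THEMIS2, NFKBIA, ARRDC4 and JUNB. HMOX1, the gene of heme oxygenase 1, was at 12.5 CPM in the si-lncRNA-LBCS-labelled library, 30.2 CPM in si-PTBP1, 47.5 CPM in the control and 181 CPM in si-hnRNPK, a difference of 3.75 (3.66 to 3.84). NFKBIA, whose product holds NF-kappaB in the cytoplasm, was at 89.2, 134, 243 and 533 CPM in the same order, a difference of 2.57. JUNB, a subunit of the AP-1 factor, was at 21.4 CPM in the si-lncRNA-LBCS-labelled library, 42.3 CPM in si-PTBP1, 36.6 CPM in the control and 129 CPM in si-hnRNPK. The tight junction gene CLDN1 differed by 3.40 and the collagenase gene MMP1 by 2.98. Past the threshold at 10 CPM or more were 313 higher and 190 lower genes, with or without a symbol. The rule of 0.5 from each library leaves little room in a difference near 1. At any level, 91 higher genes but 1 lower gene differed by 2 or more. Among the lower genes, OIP5, which acts in loading the centromeric histone, was the 1 that met the same rule. It was at 15.8 CPM in the si-lncRNA-LBCS-labelled library, 10.9 CPM in the control, 10.7 CPM in si-PTBP1 and 6.11 CPM in si-hnRNPK.

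**Figure D3:**
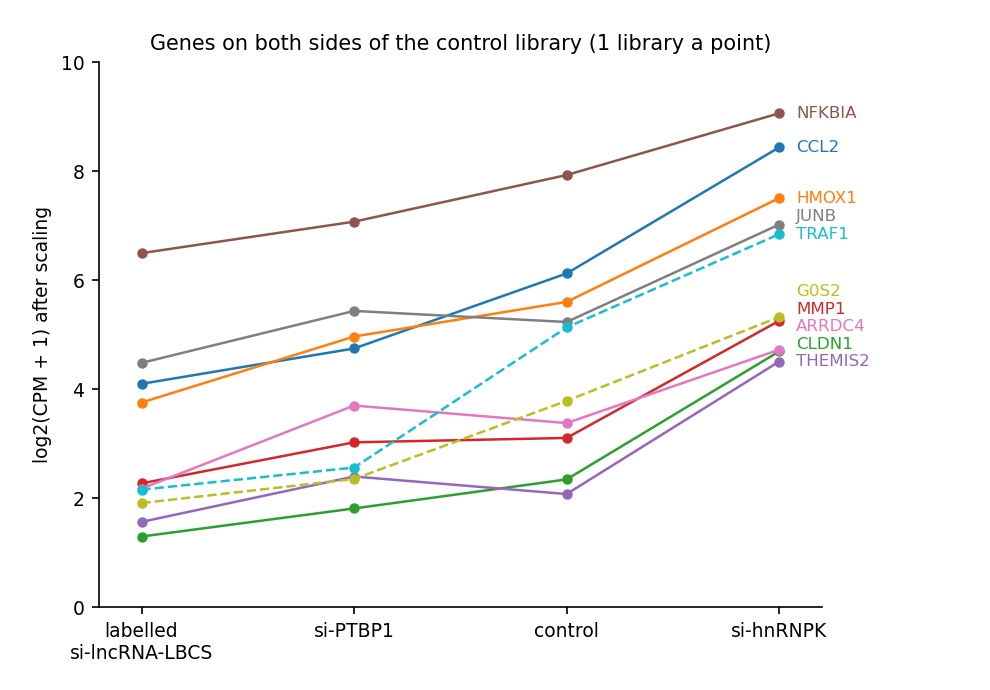
Levels of 10 genes, as log2(CPM + 1) after scaling, in the si-lncRNA-LBCS-labelled library, si-PTBP1, the control and si-hnRNPK (x axis), with 1 library a point. Solid lines, the 8 genes whose control and si-PTBP1 levels lie between the others and at least 0.5 from each; dashed lines, TRAF1 and G0S2, whose si-PTBP1 level is within 0.5 of the si-lncRNA-LBCS-labelled library. CCL2 goes from 16.1 to 345 CPM with the control at 68.7 CPM.

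G0S2, whose product inhibits the triglyceride lipase ATGL, had a similar order. It was at 2.76 CPM in the si-lncRNA-LBCS-labelled library, 4.11 CPM in si-PTBP1, 12.8 CPM in the control and 39.04 CPM in si-hnRNPK, a difference of 3.41 (3.25 to 3.58). No other of the 8 lipolysis genes passed the threshold, and their differences lay between -0.60 for LIPE and 0.56 for ABHD5.

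Matrix proteases and genes of the urokinase system were higher in 7 of 13 tested members, against 3.67% of all genes, and lower in 0, with a median of 1.05. On CPM as deposited the median was 0.95. The urokinase gene PLAU was at 579 CPM in the si-lncRNA-LBCS-labelled library, 1518 CPM in the control and 2030 CPM in si-hnRNPK. For PLAU, therefore, the si-lncRNA-LBCS-labelled library was farther from the control than si-hnRNPK was. Relative to the control, the list median was -0.72 in the si-lncRNA-LBCS-labelled library and 0.32 in si-hnRNPK. AP-1 and immediate early genes were higher in 8 of 21 tested members, against the same 3.67%, and lower in 0, with FOSB at 2.30, FOS at 2.29 and DUSP6, a phosphatase of ERK, at 2.08. FOSL1, an AP-1 gene of the same list, differed by -0.079.

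Among genes with a symbol at 10 CPM or above, the largest differences on the lower side were those of the target and of several genes of cell division. CEP55, which acts in the last step of cytokinesis, was at 252 CPM in the si-lncRNA-LBCS-labelled library, 248 CPM in the control, 198 CPM in si-PTBP1 and 63.8 CPM in si-hnRNPK, a difference of -1.97 (-2.02 to -1.91). DLGAP5, which stabilizes spindle fibres, was at 210.3, 203, 116 and 63.0 CPM in the same order. Mitotic genes among the 12 largest were also SGO2 at -1.63, ASPM at -1.56, PBK at -1.55 and TRIP13 at -1.53. The others were SERTAD4 at -1.78, IDH1 at -1.75, ADD3 at -1.67, NQO2 at -1.61 and GPAT3 at -1.56. IDH1, the cytosolic isocitrate dehydrogenase, was at 119 CPM in the si-lncRNA-LBCS-labelled library, 87.7 CPM in the control, 96.4 CPM in si-PTBP1 and 34.5 CPM in si-hnRNPK.

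All 64 G2/M phase genes were tested and each had a difference below 0. Past the threshold were 34 lower and 0 higher genes, against 1.76% lower among all genes, and the median was -1.04. Their summed level was 10870 CPM in the si-lncRNA-LBCS-labelled library and 5586 CPM in si-hnRNPK, with si-PTBP1 at 8720 CPM between them. The largest differences after CEP55 and DLGAP5 were those of the kinetochore motor CENPE, at -1.45, and of KIF20A, a motor of cytokinesis, at -1.36. The smallest was that of CKS1B, at -0.19. CCNA2, which encodes cyclin A2, was at 202 CPM in the si-lncRNA-LBCS-labelled library, 192 CPM in the control, 93.6 CPM in si-PTBP1 and 80.8 CPM in si-hnRNPK, so that si-PTBP1 was nearly as low as si-hnRNPK. MKI67, which encodes the proliferation marker Ki-67, was at 256, 600, 298 and 103 CPM in the same order. Its difference of -1.31 is thus smaller than the gap of -2.54 between si-hnRNPK and the control, because the si-lncRNA-LBCS-labelled library was also below the control.

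S phase genes were lower by smaller amounts. Of 44 tested members, 8 were lower, against 1.76% of all genes, and 0 higher, with a median of -0.68. The helicase subunit gene MCM4 was at 359 CPM in the si-lncRNA-LBCS-labelled library and 147 CPM in si-hnRNPK, a difference of -1.28. CDC45, another part of the replicative helicase, differed by -1.16 and TYMS, which makes thymidylate, by -1.14. CCNE1 and CCNE2 encode the E cyclins, and they differed by 0.22 and -0.93. Among D-type cyclins, their kinases and inhibitors, 4 of 19 were lower, against the same 1.76%. CCND1 was at 681 CPM in the si-lncRNA-LBCS-labelled library, 1184 CPM in the control, 905 CPM in si-PTBP1 and 318 CPM in si-hnRNPK, a difference of -1.095 (-1.12 to -1.07). CDK6 and the inhibitor CDKN2C were at -1.098 and -1.132, and CDKN1A, the p21 inhibitor, differed by 0.46.

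**Figure D4:**
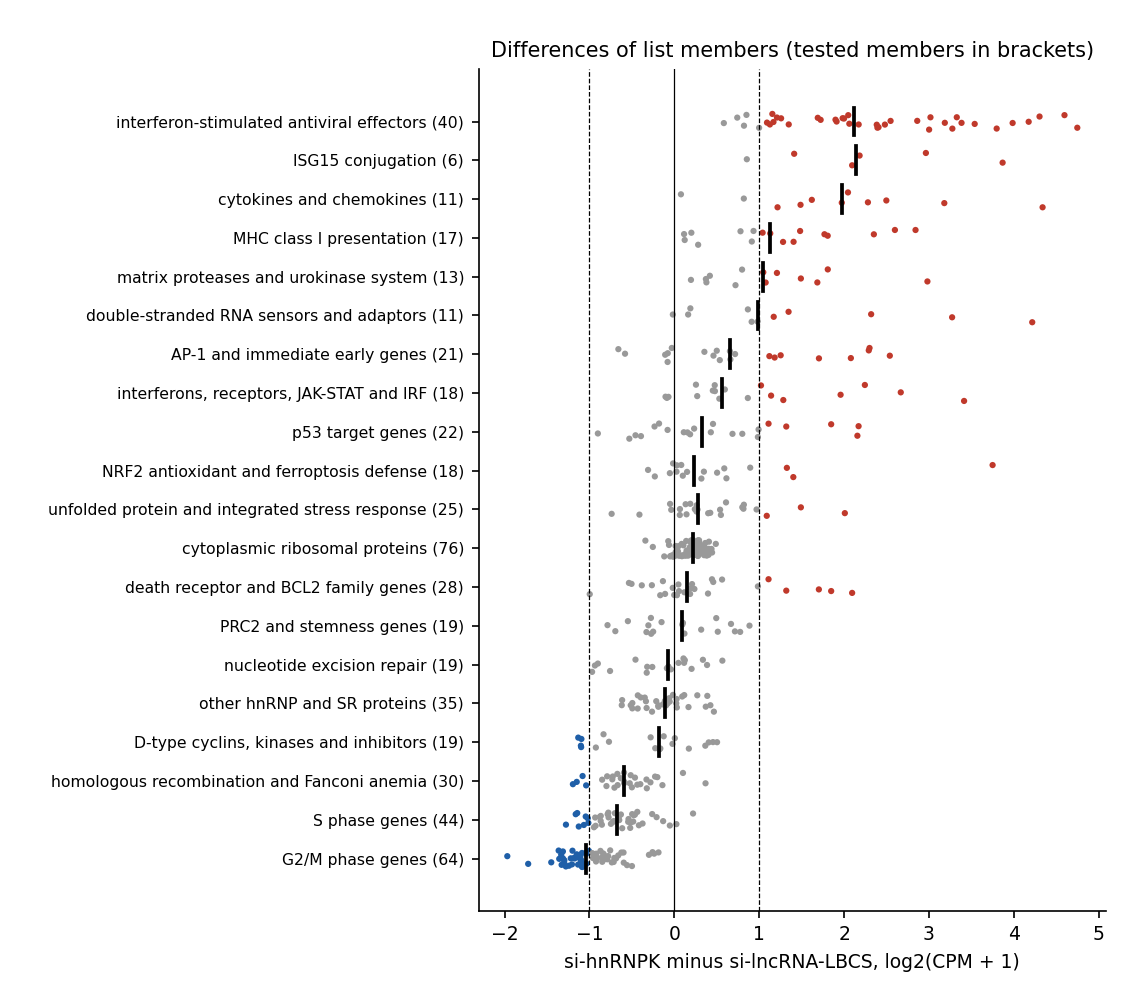
Difference of each tested member of 20 gene lists (x axis, si-hnRNPK minus the si-lncRNA-LBCS-labelled library, log2(CPM + 1)). Red points, 1 or more; blue points, -1 or less; grey points, between; short black bars, list medians; dashed lines, the threshold. Medians of the lists drawn, which are not all lists, run from 2.14 for ISG15 conjugation to -1.04 for the G2/M phase genes.

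Promoters of CEP55 (chr10:93496452-93496611, plus strand) and DLGAP5 (chr14:55191586-55191745, minus strand) are shown because of the element TTTGAA. It is the core of the cell cycle genes homology region, through which the DREAM and MuvB complexes control late cell cycle genes. The capitals mark its matches on either strand in the 160 bases before the start.
CEP55: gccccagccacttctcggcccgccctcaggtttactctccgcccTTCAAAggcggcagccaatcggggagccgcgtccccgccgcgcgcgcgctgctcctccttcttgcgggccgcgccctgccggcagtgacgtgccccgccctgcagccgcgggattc
DLGAP5: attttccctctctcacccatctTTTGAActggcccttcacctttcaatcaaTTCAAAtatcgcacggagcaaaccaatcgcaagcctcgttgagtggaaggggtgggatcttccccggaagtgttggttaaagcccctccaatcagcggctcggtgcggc
Within 250 bases before the start this element was found in 13.6% of all 27305 promoters and in 8.45% of those of tested genes. It was found in 20.1% of promoters of lower genes and 9.79% of those of higher genes. The element was found in 3 of 11 promoters of the largest lower genes named above, those of CEP55 and DLGAP5 among them. Most of these 11 promoters thus lacked it. It was found in 29 of 57 promoters of G2/M phase genes (50.9%) and 1 of 38 of S phase genes (2.63%). The E2F form TTTCCCGC had the opposite split, with 1 of 57 and 8 of 38 promoters, against 2.25% of those of tested genes. Both lists were made of known cell cycle genes, and 34 of the 64 G2/M phase genes are also among the lower genes. The shares are therefore not independent of each other.

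DNA repair genes were described by pathway. In homologous recombination and the Fanconi anemia pathway, 4 of 30 tested genes were lower (1.76% of all genes were) and 0 higher, and the median was -0.59. The 4 genes were FANCD2 at -1.195, BLM at -1.15, FANCI at -1.08 and BRCA2 at -1.04. FANCD2 and FANCI form the complex that marks DNA crosslinks, and FANCD2 was at 83.8 CPM in the si-lncRNA-LBCS-labelled library, 85.3 CPM in the control, 72.9 CPM in si-PTBP1 and 36.03 CPM in si-hnRNPK. In nucleotide excision repair 0 of 19 passed the threshold in either direction, as did 5.43% of all genes, so 0 is near that share. ERCC1 and ERCC4 encode the subunits of one nuclease. They differed by -0.26 (-0.31 to -0.21) and -0.94 (-1.12 to -0.75). ERCC4 was low in reads, with 667 in the si-lncRNA-LBCS-labelled library, 227 in si-hnRNPK and 766 in the control. Relative to the control, ERCC4 differed by -1.29 in si-hnRNPK and by -0.35 in the si-lncRNA-LBCS-labelled library.

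Among p53 target genes 5 of 22 were higher (3.67% of all genes were) and 0 lower, with a median of 0.33. These 5 were GADD45A at 2.17, PLK2 at 2.16, BBC3 at 1.85, PMAIP1 at 1.32 and FAS at 1.11. CDKN1A and MDM2, the most used markers of p53 activity, differed by 0.46 and 0.23, and BAX by 0.19. BBC3, PMAIP1 and FAS are also counted in the list of death receptor and BCL2 family genes. In that list 5 of 28 were higher, against the same 3.67%. The other two of that list were BIRC3, an inhibitor of apoptosis, and BCL2A1, a survival member of its family. BIRC3 was at 67.1 CPM in the si-lncRNA-LBCS-labelled library, 281 CPM in the control, 122 CPM in si-PTBP1 and 290 CPM in si-hnRNPK. Here too the control was close to si-hnRNPK, and the si-lncRNA-LBCS-labelled library was the one apart.

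Smaller lists held single large members. Among all genes 3.67% were higher and 1.76% lower, and the counts below stand beside these shares. XAF1, a gene linked to apoptosis and induced by interferon, had 20 reads in the si-lncRNA-LBCS-labelled library and 976 in si-hnRNPK, a ratio of 67.8 (43.7 to 112). Of 18 NRF2 and ferroptosis defense genes, HMOX1, AKR1C1 at 1.402 and TXNRD1 at 1.33 were higher, while GCLM and NQO1, standard NRF2 targets, differed by -0.015 and 0.61. Of 25 stress response genes, ATF3 at 2.01, PPP1R15A at 1.49 and DDIT4 at 1.09 were higher, and the central factor ATF4 differed by -0.050. Of 16 YAP-TEAD genes, CCN2 at 2.31, CCN1 at 1.96 and F3 at 1.101 were higher. Of 14 receptors of the EGFR, ERBB and FGFR families and their ligands, the ligand genes HBEGF at 1.90 and FGF1 at 1.46 were higher and EGFR itself differed by -0.26. FN1, at 1.37, was the member of 11 tested genes of epithelial-mesenchymal transition past the threshold. In the ID and TGF-beta list BMP2 was higher at 1.03 and ID4 lower at -1.04. ID4, the gene that overlaps LNC-LBCS on the other strand, was at 4.90 CPM in the si-lncRNA-LBCS-labelled library and 1.87 CPM in si-hnRNPK. It was at 1.98 CPM in the control and 4.84 CPM in si-PTBP1. Of 21 collagen and laminin genes LAMB3 at 1.43 and COL5A2 at 1.02 were higher and COL7A1 at -1.499 lower.

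In other groups no member, or nearly none, passed the threshold. Among all genes 5.43% passed it in either direction, so low counts in short lists lie near that share. Of the 5 poly(C)-binding protein genes, HNRNPK was the one past it, and its relatives PCBP1, PCBP2, PCBP3 and PCBP4 differed by -0.019, -0.50, 0.13 and 0.43. Among 35 other hnRNP and SR protein genes 0 passed, with a range from -0.62 for HNRNPH1 to 0.47 for SRSF5. PTBP2, a paralog of PTBP1, differed by -0.080. Among 19 genes of PRC2 and stemness 0 passed. EZH2, the catalytic subunit of PRC2 and a known partner of lncRNA-LBCS, was at 80.9 CPM in the si-lncRNA-LBCS-labelled library, 97.02 CPM in the control, 105 CPM in si-PTBP1 and 46.5 CPM in si-hnRNPK, a difference of -0.79. None of 21 cholesterol genes, 15 hypoxia genes or 76 cytoplasmic ribosomal protein genes passed either. The ribosomal protein genes had a median of 0.22, with 66 of 76 above 0, against 6957 of all 13597 genes. Of 19 glycolysis genes ALDOC passed, at 1.33, and GAPDH differed by 0.41 (0.40 to 0.41).

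Some genes were alike in both libraries and away from the control. Among 12808 tested genes with a symbol, 35 were counted, each at 10 CPM or more in the control or the higher compared library. In them both libraries differed from the control by at least 1 in the same direction and from each other by less than 0.25. The 6 farthest from the control were KRT15, GFPT2, FOSL1, RPS16, ATN1 and SNORA23, all lower. GFPT2, an enzyme of the hexosamine pathway, was at 80.0 CPM in the control, 26.6 CPM in the si-lncRNA-LBCS-labelled library, 23.8 CPM in si-hnRNPK and 26.8 CPM in si-PTBP1. FOSL1 was at 64.0, 21.4, 20.2 and 31.6 CPM in the same order. In these genes si-PTBP1 was also below the control, and in ATN1, at 28.9 CPM against 29.6 CPM, it was close to it. RPS16 has pseudogene copies, and its reads are uncertain.

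Genes with a seed match to an siRNA were compared because the 4 siRNAs could each lower mRNAs other than their target. Of 11703 tested genes with an annotated 3′ UTR, 6565 had no match to the 4 seeds in their longest one, and their median difference was 0.029. The 524 genes with a match to hnRNPK siRNA-1 alone had a median of -0.14. The 204 genes with 2 or more matches to it, whatever else they matched, had one of -0.20. Relative to the control, the genes matched by this siRNA alone were at -0.12 in si-hnRNPK and -0.0014 in the si-lncRNA-LBCS-labelled library. For hnRNPK siRNA-2 alone the median difference was -0.015 (1418 genes). For lncRNA-LBCS siRNA-1 alone it was 0.094 (435 genes), with -0.072 in the si-lncRNA-LBCS-labelled library relative to the control. For lncRNA-LBCS siRNA-2 alone it was 0.056 (959 genes). Genes with 2 or more matches, again whatever else they matched, were also compared. Their median was -0.056 for hnRNPK siRNA-2, 0.17 for lncRNA-LBCS siRNA-1 and -0.0015 for lncRNA-LBCS siRNA-2. The shift from the genes without a match was largest for hnRNPK siRNA-1, and for lncRNA-LBCS siRNA-2 its direction depended on which matched genes were taken.

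**Figure D5:**
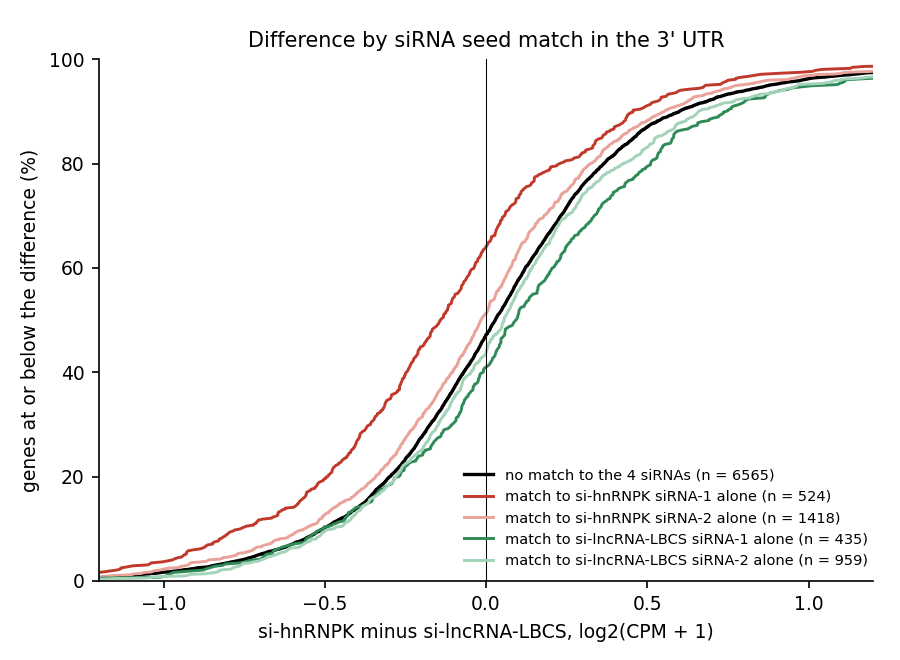
Cumulative share of genes (y axis, percent) at or below each difference (x axis, si-hnRNPK minus the si-lncRNA-LBCS-labelled library, log2(CPM + 1)), by siRNA seed match in the longest 3′ UTR. Black, 6565 genes without a match; the curve of hnRNPK siRNA-1 (dark red, 524 genes) lies to the left of it, with a median of -0.14, and that of lncRNA-LBCS siRNA-1 (dark green, 435 genes) to the right, with a median of 0.094.

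Several of the lower genes named above hold such matches. CEP55, IDH1, ADD3, SGO2 and TRIP13 each hold 1 match to the seed of hnRNPK siRNA-1, whose site is UGCAUAA in the sequence given first. SERTAD4 holds 2 matches to that of siRNA-2, and GPAT3 and TRIP13 hold 1. In all, 7 of the 12 largest lower genes (58.3%) hold a match to either hnRNPK siRNA. Among genes with an annotated 3′ UTR, the share was 40.6% of 202 lower genes, 25.2% of 433 higher genes and 30.5% of all 11703. The median 3′ UTR was 1069 bases in genes without a match and 2290 bases in the 524 genes with a match to hnRNPK siRNA-1 alone. It was 3455 bases in the 1350 genes with 1 or more matches to it, whatever else they matched. The part of seed matches in any single difference was not tested. HNRNPK, DLGAP5, NQO2, ASPM and PBK hold no match to the hnRNPK seeds, and of the 12 largest higher genes IFIT1 alone holds one. Matches to the seed of lncRNA-LBCS siRNA-2 are held by 4 of these 12 higher genes, OAS1, XAF1, OAS2 and OASL. Such a match is held by 2252 of all 11703 genes with a 3′ UTR. None of the 12 higher genes matches lncRNA-LBCS siRNA-1. Of the 12 largest lower genes NQO2 alone matches the lncRNA-LBCS seeds.

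The composition of both libraries was compared. They held 54301152 (si-hnRNPK) and 70232674 reads on listed genes, and 3 reads, the limit that a count of 0 allows, equal 0.0595 and 0.0429 CPM after scaling. In its higher library, no gene past the threshold had fewer than 53 reads. Protein-coding genes had a median difference of 0.013, long noncoding RNAs of 0.035 and pseudogenes of 0.0069. With genes in 3 classes of equal size, the median went from 0.046 for the shortest to -0.025 for the longest transcripts, and from -0.051 for the lowest to 0.058 for the highest GC content. Markers of other cell types were checked. Of 14 leukocyte markers 1 was tested, ITGAM, at 0.286 and 2.997 CPM in the si-lncRNA-LBCS-labelled library and si-hnRNPK, and none of 7 endothelial and 5 erythroid markers reached 1 CPM in either. Summed over the list, leukocyte markers were at 0.886 and 3.75 CPM and endothelial markers at 1.16 and 1.55 CPM. Of 9 fibroblast and smooth muscle markers 4 were tested, and ACTA2, which encodes smooth muscle actin, was at 1.54 and 26.1 CPM. The other fibroblast markers tested, PDGFRA, THY1 and MYH11, differed by 0.59, 0.50 and -0.43. The part of other cells in these values was not tested. Of 18 urothelial markers 6 were tested, among them the keratins KRT8 (95.1 and 77.5 CPM) and KRT18 (116 and 81.1 CPM), whereas the uroplakin gene UPK2 was at 0.229 and 0.179 CPM. TP63, a factor of basal urothelium, was the 1 member past the threshold, at 0.514 and 2.70 CPM, a difference of 1.29, and FOXA1 differed by 0.23.

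The largest difference of all was that of ENSG00000203812, a histone H2A gene named HIST2H2AA3 in GENCODE release 29 (chr1:149842188-149842736, minus strand). Its identifier had no symbol in the name table, so it is not among the genes ranked above, and it was singled out after its values were seen. This gene has a near-identical copy nearby, HIST2H2AA4, so the assignment of its reads is uncertain. It had 6333 reads in the si-lncRNA-LBCS-labelled library, 4 in the control, 5 in si-PTBP1 and 2 in si-hnRNPK. The ratio of the compared libraries was 2279, with a counting interval of 631 to 18830. It is the 1 lower gene past a difference of -2.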

How the data were processed

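Total RNA of UM-UC-3 cells was sequenced as 100-base paired-end reads, 1 library per condition. The deposited values are CPM, in which the authors scaled the reads of every gene to a common total per library. The submitters' processing notes name hg19, and the aligner, the counter and its use of strand are not given in the sources used here. Values were whole multiples of 1 read for 100% of genes with reads (tolerance 0.01 read), which gave the reads behind each value. Genes without reads carry a placeholder and were set to 0.

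CPM were scaled by median of ratios over 12362 genes, those that reached 1 CPM in each of the 4 libraries. Differences are in log2(CPM + 1), which understates the change of low genes, for genes listed for both libraries at 1 CPM or more in either, with a threshold of 1. The 12 largest differences per direction at 10 CPM or more, 8 per direction with control and si-PTBP1 between, 6 alike and away from control, genes of the study and up to 4 members of a list, with its defining genes or those under the threshold, were named. The members and lists were chosen with earlier results of these data known. Intervals are 95% exact Clopper-Pearson. Promoters are from RefSeq (GRCh38.p14), 1 per symbol. Genes are placed by GENCODE release 29 (GRCh38), in which 13221 of 13597 tested genes were found. Genes of the mitochondrial genome were not analysed here. Some list members are counted but not reported here by name. Alternatives were a pseudocount of 0.1, no filter or 5 CPM, a 1.5-fold threshold, 2 other scalings and an exact binomial test of the reads. Scripts were tested on simulated data. Calculations ran in Python 3.11.15 with scipy 1.17.1, pandas 2.3.3, numpy 2.4.6 and matplotlib 3.10.9.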

Additional observations from a re-analysis of the deposited data

Results flagged for a closer look

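Genes not listed for both libraries entered no comparison. Of 1212 genes listed for si-hnRNPK and not for the si-lncRNA-LBCS-labelled library, 2 were at 1 CPM or more, above the control, in which both had 0 reads. ZNF300P1, a transcribed pseudogene, was at 1.667 CPM (84 reads), and GSTA1, which encodes a glutathione transferase, at 1.092 CPM (55 reads). Of 1197 genes listed the other way round, 0 reached 1 CPM, and the highest was at 0.357 CPM.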

How the results depend on the processing

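Counts of higher and lower genes were 499 and 239. They became 796 and 451 with a pseudocount of 0.1 and 1391 and 1147 with a 1.5-fold threshold. They were 390 and 216 at 5 CPM, 418 and 339 with CPM as deposited and 480 and 244 with scaling over the compared libraries alone, and 499 and 239 with the binomial test added, which compares 2 libraries and not the conditions. The difference of HNRNPK was -2.10 with CPM as deposited, and that of LNC-LBCS 1.27 with a pseudocount of 0.1. Of 144 values of 48 named genes under the alternatives 4 crossed the threshold, those of LNC-LBCS and ERCC4 with a pseudocount of 0.1 and of CCNE2 and ERCC4 with CPM as deposited, and 0 changed sign past it. Of 162 list medians 6 crossed it. These were the double-stranded RNA sensors (1.36 with a pseudocount of 0.1, 1.04 at 5 CPM), the matrix proteases (0.76 without a filter, 0.95 as deposited) and the genes of the study (-1.017 with a pseudocount of 0.1, -1.024 as deposited). The cause was not tested. No paired analysis was possible because each group has 1 library and no replicate number.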
